A study of Homo sapiens with 3 samples.

Results

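The polyamine pathway was examined in 22Rv1 WT cells through 10 genes: the synthesis enzymes ODC1, AMD1, SRM and SMS, the breakdown enzymes SAT1, SMOX and PAOX, the regulators OAZ1 and AZIN1, and the salvage enzyme MTAP. They were chosen by name as the rows whose Ensembl identifier carries one of these symbols, and all 10 were found, each on 1 row, among 27024 counted genes. 22Rv1 is an established human prostate carcinoma line, and the WT cells keep the enhancer that the study deletes or edits in other cells, which were not analysed here. Their RNA was sequenced as 3 libraries, numbered as replicates 1 to 3. The paper's methods describe these as control clones and its results call them biological replicates, while the labels call them replicates only. By the paper's account the spread over them is between clones, which the labels alone do not show.

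Values are normalized counts as the authors made them: the reads of a gene over the size factor of its library. Whole reads were recovered from these values. Counted over genes, with repeated rows merged, they came to between 35675670 and 38629080 in a library. The epithelial or prostate markers HOXB13, KLK3, KRT8, KRT18 and EPCAM reached 1 CPM (reads scaled to the library size) in each library, the level called expressed here, with means from 341 normalized counts for KLK3 to 25161 for KRT8. Of the fibroblast, leukocyte and endothelial markers with a row, COL1A1 was at 261 ± 17.2 (SD, n = 3), whereas COL1A2, PTPRC, CD3E and VWF had at most 2 reads in a library.

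Polyamines are small, positively charged molecules that bind nucleic acids and are needed for growth, and the prostate secretes large amounts of spermine. ODC1 makes putrescine from ornithine, AMD1 supplies the aminopropyl donor by decarboxylating S-adenosylmethionine, and SRM and SMS use that donor to build spermidine and then spermine. Breakdown runs through SAT1, which acetylates spermidine and spermine, and PAOX, which oxidises the acetylated forms, while SMOX oxidises spermine directly. OAZ1 (antizyme) binds the ODC1 protein and sends it to the proteasome, and AZIN1 holds antizyme back from doing so. Much of this control acts on translation and protein decay, so an mRNA level is not a measure of enzyme amount.

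All 10 genes were expressed in the WT cells, as were 47.7% of the counted genes. Their mean levels spanned 338-fold, from SMOX at 54.6 ± 10.7 normalized counts to OAZ1 at 18462 ± 475 (SD, n = 3). The genes of synthesis and control each had more normalized counts than any of the 3 breakdown genes. Summed per kilobase of transcript, the 4 synthesis genes came to 15276 ± 318 normalized counts and the 3 breakdown genes to 781 ± 21.7 (SD, n = 3). This is a ratio of 19.6 ± 0.53, which was 19.0, 19.7 and 19.98 in replicates 1, 2 and 3. Both sums use the canonical annotated transcript of each gene, and the ratio was not recomputed with other lengths.

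**Figure D1:**
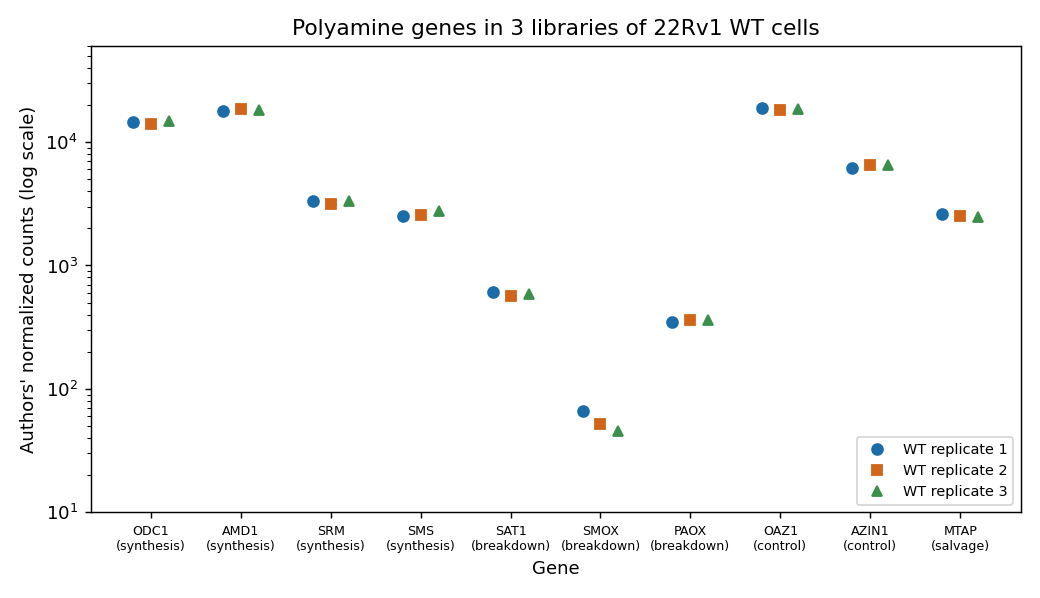
Normalized counts (vertical axis, log scale) of the 10 polyamine genes in each of the 3 WT libraries, with the role of each gene below its name. ODC1, AMD1 and OAZ1 lie highest, from 13944.5 to 18946, and SMOX lies between 45.7 and 66.4.

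Of the synthesis genes, ODC1 had 14482, 13944.5 and 14869 normalized counts in replicates 1, 2 and 3, a mean of 14432 ± 464 (SD, n = 3). Replicate 2 was the lowest and replicate 3 the highest, 1.07-fold apart. The gene spans chr2:10580094-10588453 on the minus strand (GRCh37). AMD1 was at 17939, 18362 and 18332 normalized counts in replicates 1, 2 and 3, a mean of 18211 ± 236 (SD, n = 3). Its coefficient of variation over the libraries, 1.29%, was the smallest of the 10 genes. AMD1 spans chr6:111195973-111220082 on the plus strand.

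The aminopropyltransferases were lower. SRM, the spermidine synthase, had 3351, 3140 and 3333 normalized counts in replicates 1, 2 and 3, a mean of 3275 ± 117 (SD, n = 3), and lies at chr1:11114641-11120077 on the minus strand. SMS, the spermine synthase, had 2508.5, 2554 and 2743 normalized counts in the same order, a mean of 2602 ± 124 (SD, n = 3), and lies at chrX:21958827-22012955 on the plus strand. Replicate 2 was the lowest for SRM and replicate 1 for SMS, so they did not share a low library. At limits of 50% of the transcript covered and 90% identity, SMS was the one gene of the 10 with copies elsewhere in the annotation. They are 3 processed pseudogenes that match between 57.7% and 64.7% of its transcript at 91.8% to 98.4% identity. They have no row of their own, so the handling of reads that fit both places bears on the SMS count. A copy of the coding part alone would miss the covered limit where that part is short, as in MTAP (849 of 6032 bases). Such copies of the other genes were therefore not searched in full.

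ODC1 and SRM also shared a sequence feature, the E-box CACGTG, the element bound by MYC and its relatives. It reads the same on both strands, and it was searched in RefSeq windows of 250 bases before to 50 bases from each annotated start (GRCh38.p14). Windows existed for 7 of the 10 genes, namely ODC1, AMD1, SRM, SMS, SAT1, OAZ1 and MTAP, and 2 of the 7 held the motif, against 8.77% of 27305 genes in the table. The stretches are shown because these 2 genes of synthesis were the ones with a match, and capitals mark the motif.
ODC1, chr2:10448024-10448053, minus strand, motif from base -29: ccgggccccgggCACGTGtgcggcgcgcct
ODC1, chr2:10447990-10448019, minus strand, motif from base 6: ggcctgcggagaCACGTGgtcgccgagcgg
SRM, chr1:11060200-11060229, minus strand, motif from base -199: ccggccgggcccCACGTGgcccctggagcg
Both ODC1 matches lie in the window of the more downstream of its 2 annotated starts. A match is a description of these windows, and binding was not measured here.

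The breakdown genes formed the lower end of the range. SAT1, whose product takes spermidine and spermine out of the pool by acetylation, had 611, 564 and 589 normalized counts in replicates 1, 2 and 3, a mean of 588 ± 23.2 (SD, n = 3). PAOX was at 348, 361 and 364.5 normalized counts, a mean of 358 ± 8.98 (SD, n = 3). The highest library was 1.08-fold above the lowest for SAT1 and 1.05-fold for PAOX. SMOX, the spermine oxidase, was at 66.4, 51.6 and 45.7 normalized counts, a mean of 54.6 ± 10.7 (SD, n = 3). Replicate 1 was the highest for SMOX and lay 1.45-fold above replicate 3. These values rest on 84, 61 and 58 reads, for which counting alone gives a coefficient of variation of 12.2%, against the 19.5% observed. On scaled library sizes (TMM), SMOX had 19.7%, and the 500 tested genes nearest to it in reads had a median of 18.0%.

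SAT1 lies at chrX:23801290-23804327, SMOX at chr20:4101627-4168394 and PAOX at chr10:135192765-135205198, all on the plus strand. For SAT1, 90 of 2482 annotated exon bases also belong to another protein-coding gene model on the same strand that has no row. Of the 2250 exon bases annotated for PAOX, 1373 also belong to another protein-coding gene model on the same strand that has no row, so the PAOX count could have lost or gained reads there. The 2 oxidases were far apart per kilobase of transcript. The ratio of PAOX to SMOX was 6.19, 8.28 and 9.43 in replicates 1, 2 and 3, a mean of 7.97 ± 1.64 (SD, n = 3), and that of SAT1 to SMOX was 22.7 ± 3.81. The latter was 13.1 with the union of exons and 35.7 with coding length. PAOX was above SMOX in each library, and SMOX alone had a coefficient of variation of 19.5%.

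The antizyme gene OAZ1 had the highest level of the 10. It was at 18946, 17997 and 18443 normalized counts in replicates 1, 2 and 3, and replicate 2 was the lowest, 1.05-fold under replicate 1. It lies at chr19:2269508-2273489 on the plus strand (GRCh37). Of its 3436 annotated exon bases, 220 also belong to another protein-coding gene model on the same strand that has no row, and reads there could have been lost or gained. Its exons share 236 bases with JSRP1 on the opposite strand, which had a normalized count of 0.8 in each library. The OAZ1 mRNA is known for a programmed frameshift, in which the ribosome passes over a base of a stop codon and goes on in the next frame, a step that polyamines promote. The site is shown because antizyme is made only past it, so that the reads counted here are of the mRNA on both routes.
OAZ1, chr19:2271412-2271474, plus strand, GRCh37: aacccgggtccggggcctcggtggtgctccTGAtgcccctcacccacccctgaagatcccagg
Capitals mark the stop codon, which follows 68 codons of the first frame. The annotation leaves out its first base, position 2271442, and joins the coding parts on either side of it.

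Against ODC1, its target, OAZ1 stood at a ratio of 2.76 ± 0.0759 per kilobase (SD, n = 3). The ratio was 2.82, 2.78 and 2.68 in replicates 1, 2 and 3, so OAZ1 was above ODC1 in each library. With the union of all annotated exons in place of the canonical transcript the ratio was 1.23, and with the longest transcript 1.19.

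MTAP, which returns the methylthioadenosine left by SRM and SMS to the methionine and adenine pools, had 2591, 2496 and 2459 normalized counts in replicates 1, 2 and 3, a mean of 2515 ± 68.5 (SD, n = 3). It lies at chr9:21802635-21937650 on the plus strand, in a region that is often deleted in tumours. Between 2949 and 3280 reads were counted for it in a library. Of its 14527 annotated exon bases, 460 also belong to a lncRNA model and 684 to a pseudogene model on the same strand. A lncRNA model on the opposite strand shares 257. None of these models has a row, so reads there could have been lost or gained. Replicate 1 was the highest and replicate 3 the lowest, 1.05-fold apart.

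AZIN1, the antizyme inhibitor and a relative of ODC1 without its activity, was at 6192.5, 6519 and 6520 normalized counts in replicates 1, 2 and 3, a mean of 6410 ± 189 (SD, n = 3). Replicate 1 was the low library, and the other two were nearly equal. On the minus strand of chromosome 8, the gene runs from 103838339 to 103906092. Another protein-coding gene model on the same strand, without a row, shares 159 of the 6130 annotated exon bases of AZIN1. The ratio of OAZ1 to AZIN1 per kilobase was 10.5 ± 0.572 (SD, n = 3), with 11.2, 10.1 and 10.3 in replicates 1, 2 and 3. It was 5.14 with the union of exons, 5.66 with coding length and 4.66 with the longest transcript.

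Counts rise with transcript length, so the order of the genes was read per kilobase of the canonical transcript, and each was placed among 12852 expressed genes with such a transcript. OAZ1 came first at 16082 ± 413 normalized counts per kilobase (SD, n = 3), above 99.2% of the expressed genes. ODC1 at 5829 ± 188 and AMD1 at 5320 ± 68.9 followed, above 97.4% and 97.0%. SRM was at 2599 ± 92.6, above 92.95%. SMS at 1528 ± 73.0 and AZIN1 at 1528 ± 45.0 were level on this length, above 87.4% each, and they were the one pair of neighbours in the order whose library values overlapped. SAT1 was at 561 ± 22.1 per kilobase, above 66.7% of the expressed genes, and MTAP at 417 ± 11.4, above 58.5%. PAOX at 196 ± 4.91, above 37.4%, and SMOX at 25.2 ± 4.93, above 6.38%, lay under the median of the expressed genes, which was 315.

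**Figure D2:**
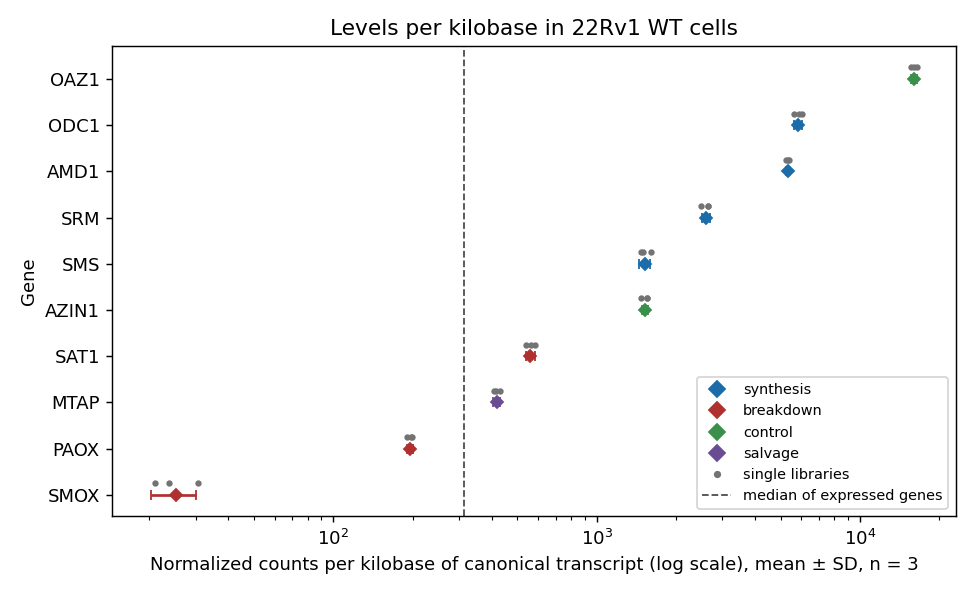
Normalized counts per kilobase of the canonical transcript (horizontal axis, log scale) of the 10 genes, ordered by level, with diamonds and bars for the mean ± SD of 3 libraries, small points for single libraries and a dashed line at the median of the expressed genes, 315. The synthesis genes lie between 1528 and 5829, and PAOX and SMOX lie left of the line.

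Each neighbour in this order was above the next in all 3 libraries, other than SMS and AZIN1. No test was attached to the order, since an exact paired test over 3 libraries gives a two-sided p of 0.25 at the least. The order of ODC1 and AMD1 rests on the length used. AMD1 stood at 0.913 ± 0.0339 of ODC1 per kilobase of the canonical transcript (SD, n = 3) but at 1.74 per kilobase of coding length, since AMD1 has 1002 coding bases in a transcript of 3423. In the same way MTAP, with 849 coding bases in a transcript of 6032, stood at rank 8 of the 10 by canonical transcript and at rank 6 by coding length. SRM was 1.70 ± 0.0889 times SMS (SD, n = 3), and between 1.42 and 1.70 under the 3 other lengths. By coding length AZIN1, at 4770 per kilobase, also stood above SRM at 3615 and SMS at 2370, so its tie with SMS holds for the canonical transcript. OAZ1 stayed first, PAOX ninth and SMOX last under each of the 4 lengths.

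The libraries were then compared for each gene, which asks how closely the levels repeat in WT cells. A test of whether the reads split over the libraries as the library sizes do (chi-square), adjusted by Benjamini-Hochberg over all tested genes, called 5 of the 10 genes (ODC1, SRM, SMS, OAZ1 and AZIN1), against a background of 41.9% of 14646 genes. The share of the members was thus near that of all genes. For 9 of the 10 genes the highest and the lowest library were less than 1.2-fold apart. The median coefficient of variation was 3.08% over the 10 genes, on the normalized counts. Over all tested genes it was 5.53%, on TMM library sizes, so the scalings of these medians differ. Since the spread falls with the number of reads, each gene was also set beside the 500 tested genes nearest to it in reads, and 5 of the 10 were below the median of those and 5 above.

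ODC1 had an adjusted p of 1.75e-06 in the chi-square test on TMM library sizes from edgeR. Its library values lay from -3.38% to 3.03% around the mean, while counting alone gives 0.747%. OAZ1 had an adjusted p of 4.75e-06 and library values from -2.52% to 2.62% around its mean. The test takes reads as independent, which would give a ratio of chi-square to degrees of freedom of 1, and this ratio was 3.49 for genes with 10 to 50 reads. With the chi-square divided by that ratio, 0 of the 10 genes were called, against a background of 3.47%. With it scaled to the 500 genes nearest in reads, 0 of the 10 were called, against a background of 0.703%. With edgeR's trended dispersion added, 0 of the 10 were called, against a background of 0.416%, and 0 of the 10 had p under 0.05 before adjustment, as did 5.47% of all genes. Both scalings and the dispersion were taken from these same libraries, so few genes can be called. The absence of calls does not show that the libraries are alike. Unscaled, the test gave 6 members an unadjusted p under 0.05, beside 50.2% of all genes.

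**Figure D3:**
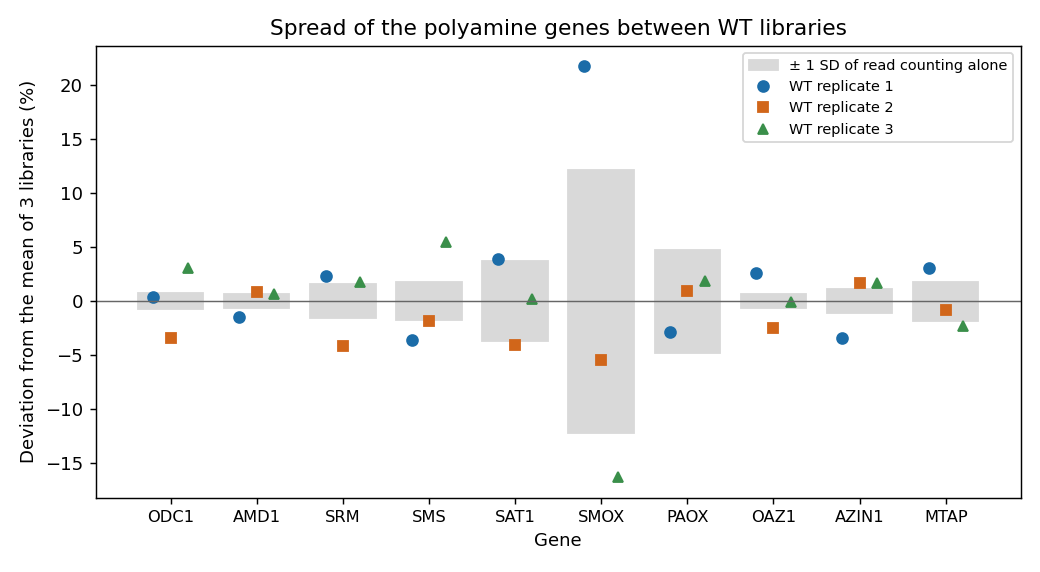
Deviation of each WT library from the mean of the 3 (vertical axis, %) for the 10 genes, with a grey box for 1 SD of read counting on either side of 0. ODC1, AMD1, SRM, SMS, OAZ1 and AZIN1 have libraries well outside the box, although within 5.42% of the mean. SMOX has the widest points, from -16.2% to 21.7%, and the widest box.

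Several of these calls were lost when a library was left out. Such settings compare fewer libraries and called 22.7% to 27.0% of all genes. A lost call therefore does not show that the library left out decided it. Without replicate 2 the adjusted p of ODC1 was 0.0650, and that of SRM was 0.859. Without replicate 1 it was 0.0944 for OAZ1, 0.883 for AZIN1 and 0.0502 for SRM. For SMS it was 0.646 without replicate 3. The libraries also differed in a trend with transcript length, where Spearman's rho over 11984 genes, which are not independent, was -0.10, 0.34 and -0.25 for replicates 1, 2 and 3, and in a trend with GC content, at 0.22, -0.24 and 0.05. With these trends removed 4 of the 10 genes were called, near the 36.4% of all genes. SRM (adjusted p = 0.690) and AZIN1 (0.193) were then not called and MTAP (0.0207) was, and ODC1, SMS and OAZ1 were called with and without the trends.

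The genes around the pathway were 26 others, of which all had a row, 23 were expressed and 24 could be tested. Overlaps of their exons with other genes, and copies of them elsewhere, were not searched. The chi-square test called 13 of the 24, beside the 41.9% of all genes, and 0 were called with the chi-square scaled to the 500 genes nearest in reads or with the added dispersion. Scaled to genes of 10 to 50 reads, it called 2 of them, SLC7A1 and ATP13A2 (adjusted p = 0.0192), beside 3.47% of all genes. Among the antizymes, OAZ2 was at 1034 ± 35.2 normalized counts per kilobase and OAZ3, known mainly from testis, at 167 ± 6.34 (SD, n = 3), both far under OAZ1. AZIN2, the second antizyme inhibitor, had 40, 35 and 32 reads and did not reach 1 CPM in every library. SAT2, a relative of SAT1, was at 855 ± 55.6 per kilobase (SD, n = 3), which is above SAT1 at 561, and the lowest library of SAT2 lay above the highest of SAT1. SATL1 had 1, 0 and 0 reads.

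Of the genes listed under ornithine and arginine, the mitochondrial arginase ARG2 was at 167 ± 14.2 normalized counts per kilobase (SD, n = 3). The liver arginase ARG1 had 1, 1 and 0 reads. OAT, which converts ornithine to and from glutamate semialdehyde, had 1077, 1030 and 1091 per kilobase in replicates 1, 2 and 3, and AGMAT was at 72.2 ± 6.08. SLC7A1, a carrier of arginine and ornithine, was at 934 ± 62.2 per kilobase and had the lowest adjusted p of the 24, 1.52e-16, with replicate 3 the lowest at 6329 normalized counts against 7137 and 7101. Its adjusted p was 0.000669 with the chi-square scaled to genes of 10 to 50 reads and 0.511 when scaled to the 500 genes nearest in reads. The transport genes ATP13A3, a polyamine pump of endosomes, at 1104 ± 27.7, and SLC3A2, at 2752 ± 157, lay above ATP13A2, a lysosomal polyamine exporter, at 670 ± 58.8, and SLC18B1, a vesicular carrier, at 293 ± 18.2 (SD, n = 3).

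**Figure D4:**
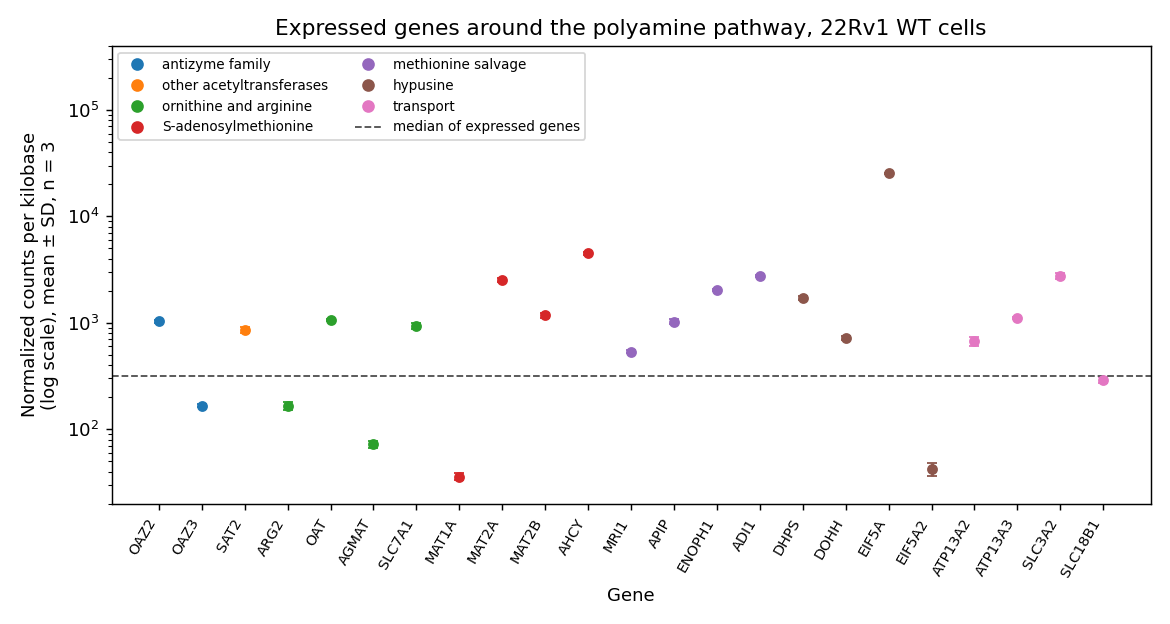
Normalized counts per kilobase (vertical axis, log scale) of the 23 expressed genes around the pathway, as mean ± SD of 3 libraries, coloured by group, with a dashed line at 315, the median of the expressed genes. EIF5A is the highest at 25409, and AGMAT, MAT1A and EIF5A2 lie lowest.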

How the data were processed

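RNA-seq of 22Rv1 WT cells (3 libraries, 1 group) was used. Paired-end reads had been aligned by the authors with HISAT2 to GRCh37 (hg19), summed over genes by HTSeq, and scaled by DESeq2. The HISAT2 version, the GENCODE release and the strandedness are not given in the sources used here. The deposited signal is reads divided by a size factor and rounded to 1 decimal. The values above 0 were whole multiples of 1 step per library (100% within rounding), which gave the reads. Neighbouring rows with equal reads were merged (1976 of 29000 rows, none of a member). Symbols matched 86.3% of identifiers.

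Library sizes were TMM-scaled in edgeR 4.0.16. Genes averaging 10 reads or more were tested by chi-square (scipy 1.17.1) with Benjamini-Hochberg adjustment at 0.05. In simulated Poisson counts, 187 of 200 genes changed 2-fold in replicate 1 were recovered among 14642 tested, with 10 false calls. The simulated counts held no spread beyond counting, so this rate of false calls does not apply to the real libraries. Lengths and coordinates came from GENCODE 44 lifted to GRCh37, and copies of the 10 members from minimap2 2.31 (at least 50% covered, 90% identity). Alternatives covered scaling, filters, spread, trends, lengths and single replicates; DESeq2 1.42.0 gave size factors. With 1 group, no condition was compared.

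The members and lists were chosen with earlier results of these data known. The text names all 10 members and the 26 listed pathway genes. Some of the listed cell type markers are not reported here. Counting errors cover counting alone.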

Additional observations from a re-analysis of the deposited data

How the results depend on the processing

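The count of members called, 5 of 10 (41.9% of all genes), was 0 with the chi-square scaled to genes of 10 to 50 reads (3.47% of all genes), 0 when scaled to the 500 genes nearest in reads (0.703%) and 0 with edgeR's trended dispersion added (0.416%). The spread used in these settings was taken from the same libraries. The count ran from 2 to 4 when each replicate was left out, which compares fewer libraries and called 22.7% to 27.0% of all genes. It was 4 with the length and GC trend removed (36.4%), 6 with DESeq2 size factors (6144 of 14646 genes), where AMD1 (adjusted p = 0.0469 against 0.0700) was added, and 5 under the other scalings, filters and unmerged rows (39.1% to 43.6%). All 10 members were expressed at 0.5 and at 1 CPM, and 9 at 5 CPM. The ratios per kilobase moved with the length taken, by construction. With the union of exons, AMD1 to ODC1 was 0.410, SRM to SMS 1.42, OAZ1 to ODC1 1.23, OAZ1 to AZIN1 5.14 and SAT1 to SMOX 13.1. With coding length they were 1.74 (reversed), 1.53, 2.59, 5.66 and 35.7. With the longest transcript, AMD1 to ODC1 was 0.506, OAZ1 to ODC1 1.19 and OAZ1 to AZIN1 4.66. The other 5 of 18 such ratios, PAOX to SMOX included, moved by less than 1 SD. The 60 recomputed levels moved by less than 1 SD, which follows from the common scale and from 3 libraries. No paired analysis was possible because only 1 group was analysed. Depth limits SMOX, with 58 to 84 reads.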

Other observations

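In the hypusine branch spermidine is spent on the translation factor eIF5A. EIF5A was at 25409 ± 402 normalized counts per kilobase (SD, n = 3), above 99.5% of the expressed genes and above each of the 10 polyamine genes. Its reads fill a row shared with another identifier, and its copies elsewhere in the genome were not searched. EIF5A2 had 201, 266 and 238.5 normalized counts, or 42.5 ± 5.90 per kilobase. The hypusine enzymes DHPS at 1712 ± 83.9 and DOHH at 724 ± 33.1 per kilobase lay between them, and DHPS was above DOHH in each library.

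Of the genes listed under S-adenosylmethionine, AHCY, which clears S-adenosylhomocysteine, was highest at 4500 ± 149 normalized counts per kilobase (SD, n = 3). MAT2A, the S-adenosylmethionine synthetase of most tissues, was at 2545 ± 105. MAT2B was at 1173 ± 52.3, and the liver form MAT1A at 36.0 ± 2.84. The salvage enzymes that follow MTAP were all above MTAP's own level of 417 per kilobase. ADI1 was at 2742 ± 62.5, ENOPH1 at 2042 ± 51.4, APIP at 1023 ± 54.2 and MRI1 at 538 ± 16.3. However, MTAP was at 2963 by coding length, a length not used for the others. The ADI1 value comes from 2 neighbouring rows with equal reads, which were merged.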
